A study of Mus musculus with 30 samples.

Results

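Chemokine receptors are G protein-coupled receptors by which leukocytes sense chemokine gradients and enter, cross or leave a tissue. D6, the product of Ccbp2, is an atypical receptor that binds inflammatory CC chemokines and removes them without triggering migration, so the receptors of those ligands are of interest in skin that lacks it. The genes described here are 8 receptors carried by leukocytes, chosen by gene symbol. Ccr1, Ccr2 and Ccr3 bind inflammatory CC chemokines, Ccr6 binds Ccl20, Ccr7 binds the lymph node chemokines Ccl19 and Ccl21, Cx3cr1 binds Cx3cl1, Cxcr4 binds Cxcl12 and Cxcr6 binds Cxcl16. They have 14 probe sets among the 45037 on the array, control probe sets not counted, and all 14 passed the filter that left 36029 probe sets to test.

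Whole shaved back skin came from female WT mice and mice that lack D6 (D6-deficient, hereafter KO) of 8 to 12 weeks, both of the strain 129–C57BL/6. TPA, a phorbol ester that inflames skin, was applied 3 times, 24 h apart, at 50 μM in acetone, and skin was taken 1, 2, 4 and 6 days later. The day 0 skin of each genotype had acetone according to the sample descriptions and the methods, although the sample titles call it untreated. There were 10 groups, each with 3 Affymetrix mouse whole-genome arrays that the labels number as biological replicates, and a 3 against 3 exact permutation test cannot give a p under 0.1. Values are log2 RMA intensities, on which 1 unit is a doubling, and a difference passes when its Benjamini-Hochberg adjusted p from limma is under 0.05.

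On 1 of the 3 probe sets of Ccbp2 the 15 KO arrays lay between 3.30 and 3.86 and the 15 WT arrays between 4.16 and 5.76. Over all days this probe set differed by -1.41 (adjusted p = 1.3e-08). Another differed by -0.69 (adjusted p = 5.2e-05), with overlapping arrays, and the brightest by -0.07 (adjusted p = 0.80). Keratinocyte markers (Krt5, Krt14, Krt1 and Krt10) had summed levels of 13.52 to 15.77 on the log2 scale on all arrays, the lowest at day 4 in both genotypes. Single markers differed. From day 0 to day 4 Krt1 and Krt10 changed by -2.525 and -4.267 in WT and by -4.456 and -5.516 in KO skin. Krt5 and Krt14 changed by 0.22 and 1.10 in WT and by -1.15 and -0.13 in KO skin. Skeletal muscle markers were lower after TPA than at day 0, with at least 3 of 4 probe sets passing at each day in each genotype. The summed level of 5 leukocyte markers (Ptprc, Cd53, Laptm5, Coro1a and Cd52) was 13.44 to 13.61 in WT and 13.32 to 13.59 in KO skin at day 0. It was 13.70 to 13.86 in WT and 14.35 to 14.49 in KO skin at day 2, and 14.29 to 14.56 and 14.28 to 14.39 at day 4. In whole skin, more cells of a type and more RNA per cell cannot be told apart. KO day 6 replicate 3 had the lowest mean correlation with the other arrays of its group (0.976), and of the 3 arrays of that group it was the highest for 6 of the 8 receptors. Its summed leukocyte level was 14.03, against 13.61 and 13.23 on the others of its group.

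Most of the receptors rose after TPA. Ccr7 rose by over 3 log2 units at day 4, Ccr1 rose at days 2 and 4 and no longer differed past the threshold from day 0 at day 6, and Cxcr6 and Ccr3 were raised at every day in both genotypes. Ccr6 rose at day 1 and at day 4 changed by -0.03 in WT and -0.46 in KO skin without passing. Cxcr4 rose in both genotypes and reached its highest level at day 2 in KO skin. The brightest probe set of Cx3cr1 did not pass at any day. The brightest probe sets by array are plotted in the courses of the 8 receptors, and the differences from day 0 in the plot of changes.

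**Figure D1:**
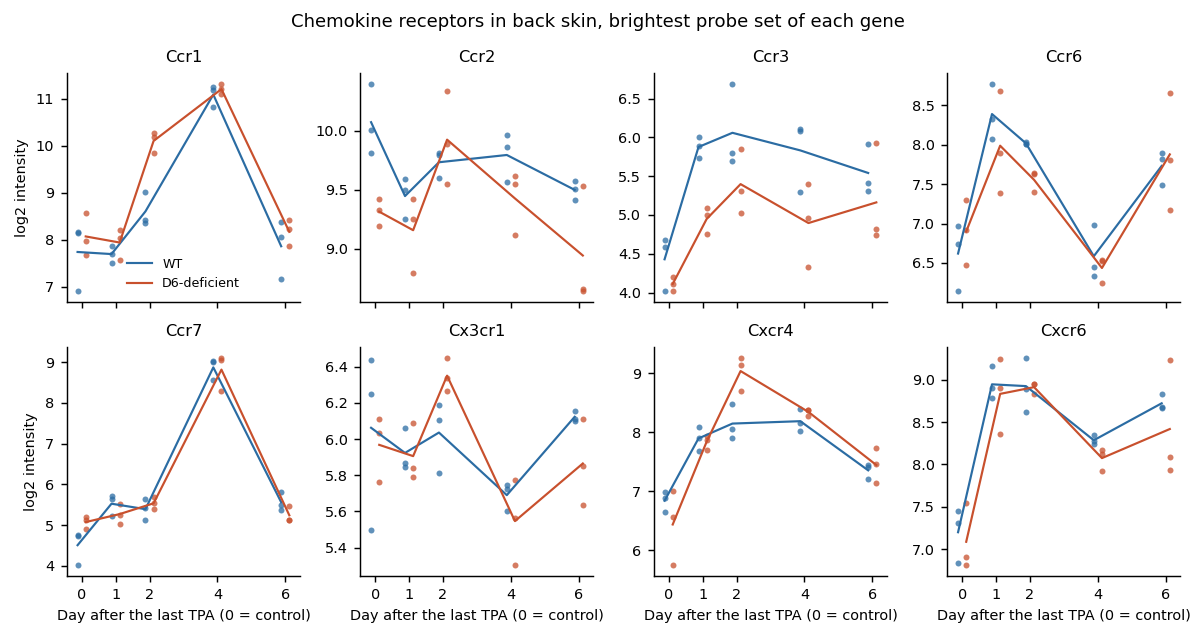
Log2 intensity (vertical axis, own scale in each panel) of the brightest probe set of each receptor against the day after the last TPA application, with 1 point per array, 3 arrays a group and lines through the group means, WT in blue and KO in red. Ccr1 and Ccr7 peak at day 4 in both genotypes, Ccr6 dips at day 4, and Ccr1 and Cxcr4 stand higher in KO than in WT skin at day 2.

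**Figure D2:**
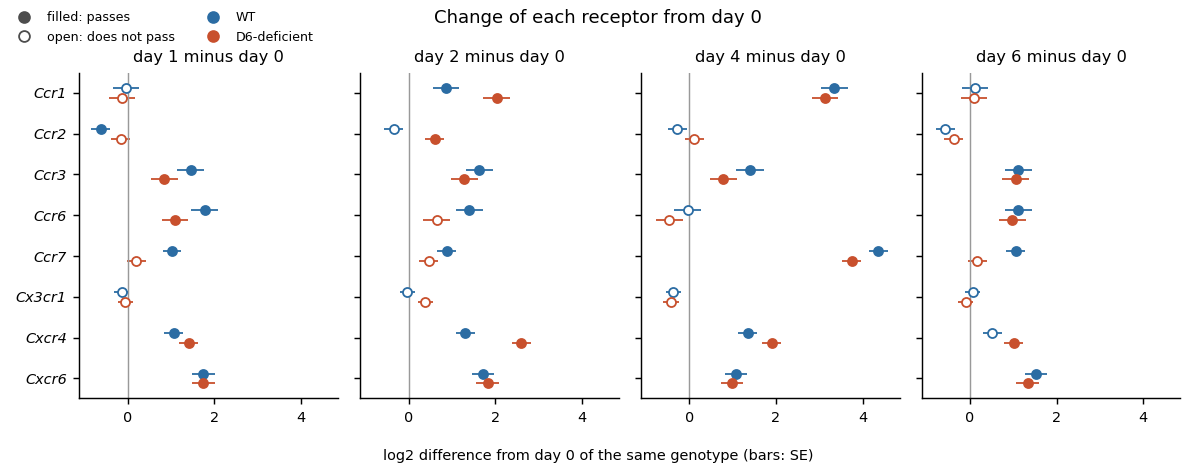
Log2 difference from day 0 of the same genotype (horizontal axis) for the brightest probe set of each receptor at days 1, 2, 4 and 6, with bars for the SE of the limma fit, WT in blue and KO in red. Filled points have an adjusted p under 0.05, as for Ccr7 at day 4 (4.37 in WT and 3.75 in KO skin), and open points do not.

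In WT skin, 6 of the 14 probe sets rose and 1 fell at day 1, against 11.4% of all tested probe sets that rose and 12.7% that fell. At day 2 the receptors gave 8 higher and 0 lower (all probe sets 11% and 15%), at day 4 8 higher and 1 lower (17.3% and 21.8%), and at day 6 5 higher and 0 lower (10.2% and 11.9%). In KO skin 6 rose and 0 fell at day 1 (18.2% and 18.1%), 10 rose and 0 fell at day 2 (17.5% and 20.6%), 8 rose and 0 fell at day 4 (18.8% and 22.4%), and 5 rose and 0 fell at day 6 (16% and 15.7%). The median change of the 14 probe sets was 0.48, 0.76, 0.82 and 0.38 at days 1, 2, 4 and 6 in WT skin and 0.21, 0.97, 0.70 and 0.17 in KO skin, whereas the medians over all tested probe sets lay between -0.00876 and 0.0201. With a change of more than 3-fold asked as well, 2, 2, 3 and 0 probe sets passed in WT and 1, 4, 4 and 0 in KO skin. Among all 36029 tested probe sets 636, 686, 1169 and 483 did so in WT and 897, 1177, 1445 and 766 in KO skin. These contrasts share the day 0 arrays of their genotype.

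Between consecutive days, 0 of the 14 probe sets passed from day 1 to day 2 in WT skin (1.2% of all probe sets, in either direction), and 5 rose in KO skin (10.4%). In WT skin 1 had an unadjusted p under 0.05 in this step, a threshold at which all probe sets were not counted. From day 2 to day 4, 3 rose and 2 fell in WT (14.5%) and 2 rose and 5 fell in KO skin (16.3%). From day 4 to day 6, 1 rose and 5 fell in WT (22.1%), and in KO skin 1 rose and 5 fell as well (31.4%). The probe set that rose from day 4 to day 6 was that of Ccr6 in both genotypes.

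Promoters are shown for Ccr1 and Cxcr4, whose brightest probe sets differed between the genotypes at day 2, and for Ccr3, the only receptor whose promoter held the TPA response element. Each runs from 250 bases before to 50 bases after a start site, 5′ to 3′ on the gene's strand, from RefSeq on GRCm38.p6. Such sequences were given for 7 of the 8 receptors, with a pair of start sites for Ccr6, and Ccr7 was not among them. Both strands were searched for TGANTCA (the TPA response element, bound by AP-1), the kappaB site, GAGGAA (the core bound by PU.1, a factor of myeloid cells) and TATAAA (the TATA box), and capitals mark the matches.
Ccr1, chr9:123968643-123968942, minus strand: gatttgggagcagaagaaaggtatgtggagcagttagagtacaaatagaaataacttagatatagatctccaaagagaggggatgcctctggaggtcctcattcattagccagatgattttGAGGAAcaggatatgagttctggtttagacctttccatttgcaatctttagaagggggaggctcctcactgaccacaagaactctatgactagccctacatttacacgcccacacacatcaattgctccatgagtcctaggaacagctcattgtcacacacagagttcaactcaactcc
Ccr3, chr9:124021721-124022020, plus strand: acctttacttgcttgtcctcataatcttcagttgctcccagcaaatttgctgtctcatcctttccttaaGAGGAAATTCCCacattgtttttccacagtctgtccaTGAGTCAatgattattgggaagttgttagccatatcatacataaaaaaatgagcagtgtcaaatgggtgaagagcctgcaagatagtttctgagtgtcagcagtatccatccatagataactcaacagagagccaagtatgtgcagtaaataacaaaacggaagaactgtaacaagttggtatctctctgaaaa
Cxcr4, chr1:128592250-128592549, minus strand: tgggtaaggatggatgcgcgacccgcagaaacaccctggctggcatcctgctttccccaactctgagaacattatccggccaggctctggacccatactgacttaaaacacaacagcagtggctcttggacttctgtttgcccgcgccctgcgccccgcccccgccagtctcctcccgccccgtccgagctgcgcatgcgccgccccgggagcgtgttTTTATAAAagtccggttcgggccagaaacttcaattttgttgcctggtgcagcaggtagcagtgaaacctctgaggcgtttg
The TPA response element of Ccr3 lay at bases -144 to -138 from its start site, and 7.81% of 32851 promoters of the same length held these letters. A kappaB match lay at -179 to -170 of the Ccr3 promoter, overlapping a PU.1 core, and another at -80 to -71 of a Ccr6 promoter, against 1.2% of all promoters. The PU.1 core was found in promoters of Ccr1, Ccr3 and Ccr6 and in 28.3% of all, and the TATA box, on both strands where it overlaps itself, in that of Cxcr4 at -30 to -25 and in 13.6% of all. A match is a run of letters, and binding was not measured.

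Ccr1, a receptor of monocytes and neutrophils for Ccl3, Ccl5 and related ligands, changed most between day 1 and day 4. On its brightest probe set the WT arrays read 8.14, 8.16 and 6.90 at day 0, 7.87, 7.51 and 7.70 at day 1, 8.42, 9.02 and 8.35 at day 2, 11.19, 10.83 and 11.24 at day 4, then 8.37, 8.05 and 7.16 at day 6. The KO arrays read 7.97, 8.56 and 7.67 at day 0, 7.57, 8.203 and 8.04 at day 1, 10.18, 10.27 and 9.85 at day 2, 11.09, 11.32 and 11.20 at day 4, then 8.42, 7.86 and 8.22 at day 6. The day 4 arrays of both genotypes stood above all others, and at day 2 every KO array stood above every WT array. The rise from day 0 to day 4 was 3.35 in WT (SE 0.30, adjusted p = 7.9e-09) and 3.13 in KO skin (SE 0.30, adjusted p = 1.5e-08), about 10.2-fold and 8.77-fold. At day 2 the change from day 0 was 2.03 in KO (adjusted p = 1.1e-05) and 0.86 in WT skin (adjusted p = 0.037). The WT value rested on single day 0 and day 2 arrays, at 0.45 (adjusted p = 0.30) without WT day 0 replicate 3, which was the lowest, and at 0.65 (adjusted p = 0.18) without WT day 2 replicate 2. From day 2 to day 4 Ccr1 rose by 2.49 in WT and by 1.10 in KO skin (adjusted p = 3.2e-06 and 0.013), and from day 4 to day 6 it fell by 3.23 and 3.04. The changes at days 1 and 6 ran from -0.13 to 0.12 and did not pass. With only the arrays of the contrast fitted, the WT change at day 2 had an adjusted p of 0.11.

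The other probe set of Ccr1, at a lower intensity, also peaked at day 4 in WT skin, at 7.21, 7.46 and 8.32, but read 6.75, 6.42 and 4.55 in KO skin. It rose from day 0 by 3.47 in WT (adjusted p = 1.2e-06) and by 1.63 in KO skin (adjusted p = 0.0043), and the genotypes at day 4 differed by -1.76 (SE 0.44, adjusted p = 0.070), while the brightest probe set gave 0.11 (adjusted p = 0.96). The pair of probe sets gave opposite signs at day 4. At day 2 the dimmer one gave 0.87 (adjusted p = 0.35) and the brightest 1.499. The plot of all probe sets of Ccr1 and Ccr2 shows them by array.

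**Figure D3:**
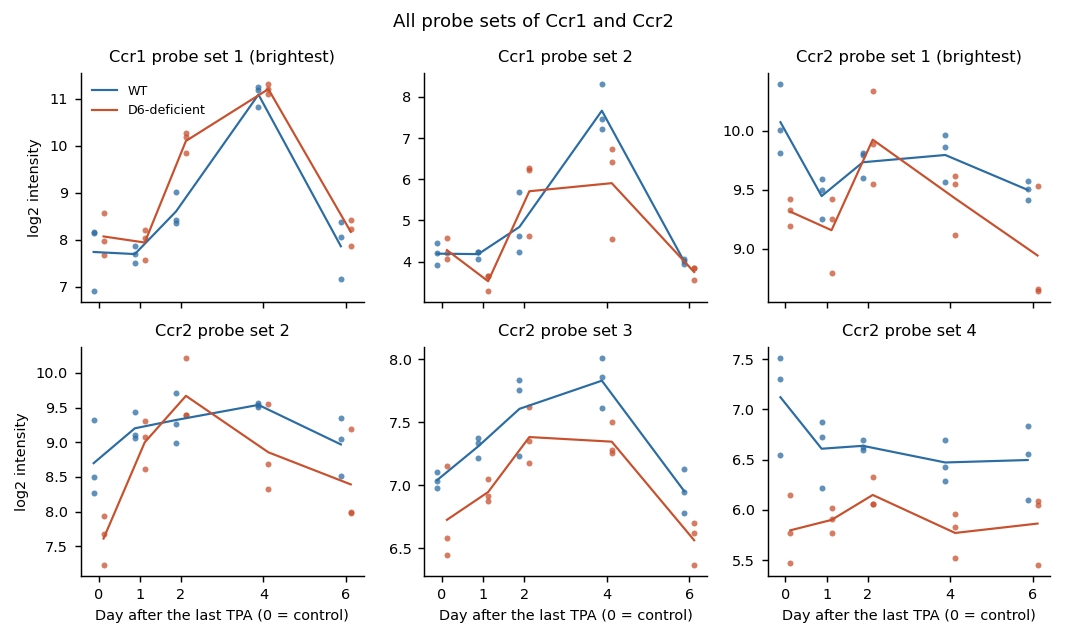
Log2 intensity (vertical axis, own scale in each panel) of the 2 probe sets of Ccr1 and the 4 of Ccr2, ordered by mean level, against the day after the last TPA application, with 1 point per array and lines through the means of 3 arrays. The KO arrays of Ccr2 probe set 4 stand below the WT arrays at every day.

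Ccr2, the receptor for Ccl2 on inflammatory monocytes, had 4 probe sets that did not move alike. The brightest read 10.01, 10.40 and 9.81 in WT skin at day 0 and 9.59, 9.25 and 9.50 at day 1, a fall of 0.63 on the log2 scale (adjusted p = 0.038), against a change of -0.09 (adjusted p = 0.77) with the 4 probe sets averaged. In KO skin it read 9.19, 9.43 and 9.33 at day 0 and 10.34, 9.55 and 9.88 at day 2, a rise of 0.61 (adjusted p = 0.029). The WT fall no longer passed without WT day 0 replicate 1 or 2 or without any of the WT day 1 arrays (adjusted p = 0.055 to 0.18), nor with median centring (adjusted p = 0.058). The rise no longer passed without KO day 0 replicate 1 or 3 or day 2 replicate 1 or 3 (adjusted p = 0.055 to 0.19). No other contrast of this probe set with day 0 passed. The second probe set had no WT change that passed and in KO skin rose by 1.39 at day 1, 2.06 at day 2 and 1.24 at day 4 (adjusted p = 0.0025, 3.8e-05 and 0.0047), from day 0 arrays at 7.67, 7.23 and 7.93. The difference between the genotypes in these changes was 0.88, 1.44 and 0.40 (adjusted p = 0.57, 0.085 and 0.86). The third rose in both genotypes, at day 2 by 0.57 in WT and 0.66 in KO skin and at day 4 by 0.79 and 0.62 (adjusted p between 0.00054 and 0.014). The fourth did not rise at any day and fell by 0.65 at day 4 in WT skin (adjusted p = 0.028).

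Ccr3, the eotaxin receptor of eosinophils, was raised at every day in both genotypes. The WT arrays read 4.03, 4.59 and 4.67 at day 0, 5.74, 6.00 and 5.88 at day 1, 5.79, 5.69 and 6.69 at day 2, 6.12, 5.29 and 6.09 at day 4, then 5.91, 5.41 and 5.30 at day 6. The KO arrays read 4.11, 4.21 and 4.02 at day 0, 4.75, 5.09 and 5.001 at day 1, 5.31, 5.86 and 5.03 at day 2, 4.32, 4.97 and 5.40 at day 4, then 4.75, 4.82 and 5.92 at day 6. No array after TPA overlapped day 0 of its genotype. The rises were 1.45, 1.63, 1.40 and 1.11 in WT (adjusted p = 0.0015, 0.00041, 0.00094 and 0.012) and 0.84, 1.29, 0.79 and 1.05 in KO skin (adjusted p = 0.039, 0.0020, 0.047 and 0.012). No step between consecutive days from day 1 on passed the test. In KO skin the rise at day 1 did not pass without any one of the day 0 arrays or day 1 replicates 2 and 3 (adjusted p = 0.062 to 0.11), nor that at day 4 without any one of the day 0 arrays or day 4 replicates 2 and 3 (adjusted p = 0.071 to 0.23). The day 4 rise had an adjusted p of 0.055 with no filter, and the day 6 rise was 0.67 (adjusted p = 0.10) without day 6 replicate 3. In WT skin the day 6 rise had an adjusted p of 0.077 without WT day 0 replicate 1 and 0.063 without WT day 6 replicate 1. Eosinophil markers (Prg2, Epx, Siglec5 and Il5ra, of which Epx was below the filter) had summed levels of 5.80 to 6.27 in WT and 6.01 to 6.38 in KO skin at day 0 and of 7.47 to 8.28 and 7.16 to 8.10 at day 2. At day 4 they were 7.40 to 8.16 in WT and 5.69 to 7.14 in KO skin. Single markers differed: at day 2 Siglec5 rose by 2.57 in WT and 1.65 in KO skin (adjusted p = 0.00080 and 0.016). Prg2 changed by 0.92 and 2.08 (adjusted p = 0.10 and 0.00024), and Il5ra by 0.82 and 0.03 (adjusted p = 0.0062 and 0.94). The part of these markers in the Ccr3 signal was not tested.

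Ccr6, carried by Langerhans cells and by interleukin 17-producing T cells, rose at day 1, fell between day 2 and day 4 and rose again to day 6. The WT arrays read 6.14, 6.75 and 6.97 at day 0, 8.07, 8.78 and 8.32 at day 1, 8.01, 8.04 and 8.00 at day 2, 6.33, 6.98 and 6.45 at day 4, then 7.89, 7.81 and 7.49 at day 6. The KO arrays read 6.92, 6.47 and 7.30 at day 0, 7.39, 7.90 and 8.68 at day 1, 7.62, 7.40 and 7.64 at day 2, 6.54, 6.24 and 6.53 at day 4, then 7.80, 7.17 and 8.66 at day 6. Days 1, 2 and 6 stood above day 0 and day 4 in WT skin without overlap. Against day 0 Ccr6 changed by 1.77, 1.40, -0.03 and 1.11 in WT (adjusted p = 0.00020, 0.0016, 0.94 and 0.012) and by 1.09, 0.66, -0.46 and 0.98 in KO skin (adjusted p = 0.0079, 0.10, 0.25 and 0.018). From day 2 to day 4 it fell by 1.43 in WT and 1.12 in KO skin (adjusted p = 0.0022 and 0.014), and from day 4 to day 6 it rose by 1.15 and 1.44 (adjusted p = 0.0089 and 0.00094). Without KO day 6 replicate 3 the day 6 rise in that genotype was 0.59 (adjusted p = 0.14). Without KO day 0 replicate 2 its adjusted p was 0.10 at day 6 and 0.054 at day 1, and without KO day 1 replicate 3 that of day 1 was 0.072. The WT rise at day 6 had an adjusted p of 0.082 without WT day 0 replicate 1 and 0.052 without WT day 6 replicate 2. Cd207, the Langerhans cell marker, changed by -1.40 in WT and -1.15 in KO skin at day 4 (adjusted p = 0.0061 and 0.020), and at day 2 by 0.06 and -2.68 (adjusted p = 0.93 and 8.4e-06). Of the 16 tested probe sets of its list, 6 rose and 9 fell at day 4 in each genotype, and of 14 T cell probe sets 6 rose in WT and 7 in KO skin and 0 fell. Of all probe sets 17.3% rose and 21.8% fell at day 4 in WT and 18.8% and 22.4% in KO skin. The part of either list in the Ccr6 signal was not tested.

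Ccr7, which leads mature dendritic cells and lymphocytes into lymphatic vessels, had the largest change of the 8 receptors. The WT arrays read 4.74, 4.02 and 4.77 at day 0, 5.72, 5.65 and 5.21 at day 1, 5.42, 5.63 and 5.12 at day 2, 9.04, 8.57 and 9.02 at day 4, then 5.83, 5.50 and 5.37 at day 6. The KO arrays read 5.12, 4.91 and 5.19 at day 0, 5.04, 5.25 and 5.53 at day 1, 5.39, 5.69 and 5.53 at day 2, 9.11, 8.29 and 9.05 at day 4, then 5.13, 5.13 and 5.46 at day 6. Day 4 stood more than 2 units above every other array in both genotypes. The day 4 change was 4.37 in WT (SE 0.22, adjusted p = 8.8e-13) and 3.75 in KO skin (SE 0.22, adjusted p = 6.8e-12), about 20.6-fold and 13.4-fold. The WT changes at days 1, 2 and 6 were 1.02, 0.88 and 1.06 (adjusted p = 0.0014, 0.0038 and 0.0012), and the KO ones were 0.20, 0.46 and 0.17 (adjusted p = 0.52, 0.099 and 0.60). The difference between the genotypes in these changes was -0.82, -0.42 and -0.89 and did not pass (adjusted p = 0.37, 0.55 and 0.42), and the day 0 levels differed by 0.57 without passing (adjusted p = 0.21), and by 0.32 (adjusted p = 0.60) without WT day 0 replicate 2. From day 4 to day 6 Ccr7 fell by 3.31 in WT and by 3.58 in KO skin (adjusted p = 2.2e-10 and 3.3e-11). Some of the dendritic and Langerhans cell genes counted beside Ccr6 are given here by their change from day 0 to day 4. Fscn1, an actin-bundling protein of mature dendritic cells, rose by 1.93 in WT and 2.09 in KO skin (adjusted p = 1.7e-08 and 3.2e-09). Cd83, a maturation marker, rose by 1.12 and 0.70 (adjusted p = 0.0027 and 0.048). H2-Aa and H2-Ab1, of MHC class II, changed by -0.87 and -0.93 in WT and -0.85 and -0.93 in KO skin. Their part in the Ccr7 change was not tested.

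Cx3cr1, the fractalkine receptor of patrolling monocytes and resident macrophages, had no passing change from day 0 on its brightest probe set. It stayed between 5.30 and 6.45 on all 30 arrays, and its 8 changes from day 0 ran from -0.42 to 0.38 with adjusted p of 0.056 or more. In KO skin it read 6.33, 6.27 and 6.45 at day 2 and 5.56, 5.30 and 5.78 at day 4, a fall of 0.80 (SE 0.17, adjusted p = 0.0020), while the WT step was -0.35 (adjusted p = 0.21). The other probe set read 3.89, 3.82 and 3.88 at day 0 and 4.58, 4.58 and 4.30 at day 2 in KO skin, a rise of 0.62 (adjusted p = 0.0084).

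Cxcr4, the receptor for Cxcl12 on most leukocytes, was the receptor whose change from day 0 passed the test of a difference between the genotypes, at day 2. The WT arrays read 6.65, 6.98 and 6.88 at day 0, 7.91, 7.68 and 8.09 at day 1, 7.90, 8.47 and 8.05 at day 2, 8.15, 8.01 and 8.39 at day 4, then 7.40, 7.44 and 7.21 at day 6. The KO arrays read 6.56, 5.75 and 6.996 at day 0, 7.87, 7.94 and 7.70 at day 1, 8.70, 9.26 and 9.14 at day 2, 8.27, 8.38 and 8.37 at day 4, then 7.73, 7.45 and 7.14 at day 6. The day 2 arrays of KO skin stood above all other arrays of the study. The changes were 1.06, 1.31, 1.35 and 0.52 in WT (adjusted p = 0.0010, 9.9e-05, 3.1e-05 and 0.095) and 1.40, 2.60, 1.91 and 1.01 in KO skin (adjusted p = 3.0e-05, 4.2e-09, 2.2e-07 and 0.0012). The KO rise at day 6 was 0.66 (adjusted p = 0.013) without KO day 0 replicate 2, and did not pass with only the arrays of the contrast fitted (adjusted p = 0.067). Between day 1 and day 2 Cxcr4 rose by 1.197 in KO skin (adjusted p = 0.00069), where the WT step was 0.25 (adjusted p = 0.67). It then fell by 0.69 to day 4 in KO skin (adjusted p = 0.031), and from day 4 to day 6 by 0.83 in WT and 0.90 in KO skin.

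Cxcr6, carried by skin T cells, was raised at all days in both genotypes on its brightest probe set. The WT arrays read 6.84, 7.31 and 7.45 at day 0, 8.90, 9.16 and 8.78 at day 1, 8.62, 9.26 and 8.89 at day 2, 8.28, 8.34 and 8.24 at day 4, then 8.67, 8.83 and 8.66 at day 6. The KO arrays read 6.81, 6.90 and 7.55 at day 0, 8.36, 8.90 and 9.24 at day 1, 8.95, 8.83 and 8.95 at day 2, 7.92, 8.13 and 8.18 at day 4, then 8.09, 7.93 and 9.24 at day 6. No array after TPA overlapped day 0 of its genotype. The rises were 1.74, 1.72, 1.08 and 1.52 in WT (adjusted p between 2.8e-05 and 0.0017) and 1.74, 1.82, 0.99 and 1.33 in KO skin (adjusted p between 5.8e-06 and 0.0034). On the other probe set 7 of the 8 rises passed, and the KO one at day 4 was 0.56 (adjusted p = 0.067). From day 2 to day 4 the brightest probe set fell by 0.84 in KO skin (adjusted p = 0.027), and the WT step was -0.64 (adjusted p = 0.11). Over 14 tested probe sets of T cell genes, 9, 7, 6 and 8 rose at days 1, 2, 4 and 6 in WT and 10, 9, 7 and 8 in KO skin. Of all probe sets 11.4%, 11%, 17.3% and 10.2% rose in WT and 18.2%, 17.5%, 18.8% and 16% in KO skin. The summed level of the 9 T cell genes was 11.74 to 12.12 in WT and 11.45 to 12.01 in KO skin at day 0. At day 2 it was 11.84 to 11.96 and 11.46 to 11.80. Thy1, at the highest level of these, averaged 11.52 at day 0 and 11.22 at day 2 in WT and 11.37 and 10.79 in KO skin. The part of these genes in the Cxcr6 signal was not tested.

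The genotypes were then compared on the same day. At day 0, 1 of the 14 probe sets differed (1.57% of all probe sets), at day 1 0 (0.0555%), at day 2 2 (4.45%), at day 4 0 (0.513%) and at day 6 0 (0.125%). At an unadjusted p under 0.05 there were 4, 4, 4, 4 and 3, and the share of all probe sets at that threshold was not counted. At day 2 the brightest probe sets of Ccr1 and Cxcr4 were higher in KO skin, by 1.499 (SE 0.30, adjusted p = 0.0031) and by 0.89 (SE 0.22, adjusted p = 0.016), with no overlap of the arrays. The Ccr1 difference kept an adjusted p of at most 0.025 with each array left out. That of Cxcr4 rose to 0.099 without WT day 2 replicate 1, 0.069 without WT day 2 replicate 3, 0.11 without KO day 2 replicate 2 and 0.074 without KO day 2 replicate 3. At day 0 the fourth probe set of Ccr2 was lower in KO skin, at 5.47, 5.77 and 6.15 against 6.54, 7.51 and 7.31, a difference of -1.32 (SE 0.23, adjusted p = 0.0041).

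Markers of myeloid cells differed between the genotypes at day 2 as well. The summed level of 6 neutrophil genes (S100a8, S100a9, Ngp, Camp, Ltf and Csf3r) was 15.22 to 15.65 in WT and 15.58 to 15.73 in KO skin. S100a8 and S100a9 had the highest levels, with means of 14.22 and 14.6 in WT and 14.32 and 14.71 in KO skin. The WT and KO means were 5.75 and 10.57 for Ngp, 6.10 and 9.38 for Camp, 4.43 and 8.25 for Ltf and 8.69 and 10.39 for Csf3r. Of the 6 probe sets 4 were higher in KO skin (4.45% of all probe sets differed, in either direction). The summed level of 9 monocyte and macrophage genes, Csf1r, Cd68 and Itgam among them, was 14.34 to 14.49 in WT and 14.74 to 14.86 in KO skin, with 5 of 12 probe sets higher and 0 lower. Of the leukocyte marker genes 3 of 12 probe sets were higher and 0 lower. Their part in the day 2 differences of Ccr1 and Cxcr4 was not tested. For T cell genes 2 of 14 probe sets were higher at day 2 and 0 lower, and Cxcr6 differed by -0.01 (adjusted p = 0.99).

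When the change from day 0 was compared between the genotypes, 0 of the 14 probe sets passed at day 1 (0.0194% of all probe sets), 1 at day 2 (5.4%), 0 at day 4 (0.608%) and 0 at day 6 (0.025%). At an unadjusted p under 0.05 there were 1, 5, 1 and 2, again without a count over all probe sets. The probe set that passed at day 2 was that of Cxcr4, whose rise was larger in KO than in WT skin by 1.29 (SE 0.31, adjusted p = 0.013). The difference stayed between 0.95 and 1.57 with each array left out, at adjusted p of at most 0.048. The lowest of these values was that without KO day 0 replicate 2, which read 5.75. With only the arrays of these 4 groups fitted the adjusted p was 0.069. Ccr1 and Ccr2, at 1.17 and 0.95, missed the threshold (adjusted p = 0.13 and 0.076), and passed without WT day 0 replicate 3 (Ccr1, 1.59, adjusted p = 0.016) or without KO day 2 replicate 2 (Ccr2, 1.14, adjusted p = 0.046). The brightest probe set of Ccr2 differed between the genotypes by -0.76 at day 0 (adjusted p = 0.078, and -0.87 with adjusted p = 0.014 for its probe sets averaged) and by 0.19 at day 2 (adjusted p = 0.76).

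Over all days together, 1 of the 14 probe sets was higher and 4 were lower in KO skin (5.52% of all probe sets, in either direction). They belonged to Ccr1, Ccr2 and Ccr3, which lie near each other on chromosome 9, the chromosome of D6, where Cxcr6 and Cx3cr1 lie as well. That chromosome thus holds 5 of the 8 receptors and most of the 14 probe sets, whether they passed or not. In the order of protein-coding genes on GRCm38.p6, Cxcr6 is gene 31 from D6, Ccr1 33, Ccr3 35 and Ccr2 36, and Cx3cr1 is 23 genes away on the other side. Ccr3 differed by -0.64 (SE 0.14, adjusted p = 0.0056), with 0 single days passing. Of the eosinophil markers, Il5ra differed by -0.42 over all days (adjusted p = 0.0077), Siglec5 by -0.73 (adjusted p = 0.073) and Prg2 by 0.13 (adjusted p = 0.75), and their part in the Ccr3 difference was not tested. The fourth probe set of Ccr2 differed by -0.77 (SE 0.10, adjusted p = 3.3e-05) and had all KO arrays below all WT arrays at every day. The third and the brightest probe sets of Ccr2 differed by -0.35 and -0.36 (adjusted p = 0.0043 and 0.030), and the second by -0.44 (adjusted p = 0.096). The brightest of them did not pass without WT day 0 replicate 2, WT day 4 replicate 3, WT day 6 replicate 1, KO day 0 replicate 1, KO day 1 replicate 1, KO day 2 replicate 2, KO day 4 replicate 3 or KO day 6 replicate 1 or 2 (adjusted p = 0.050 to 0.057). The brightest probe set of Ccr1 differed by 0.50 (SE 0.14, adjusted p = 0.028) and the other one by -0.34 (adjusted p = 0.36), and their average by 0.08 (adjusted p = 0.80). On single days the brightest passed at day 2 alone, where it differed by 1.499 (adjusted p = 0.0031). The difference over all days of the brightest did not pass without WT day 2 replicate 3, WT day 4 replicate 2, KO day 0 replicate 2 or KO day 1 replicate 2 (adjusted p = 0.051 to 0.054). In a t-test with the days pooled it had an adjusted p of 0.94. That test counts the course over the days as spread, so it cannot decide whether the genotypes differ within days. Ccr6, Ccr7, Cxcr4, Cxcr6 and Cx3cr1 differed by -0.15 to 0.14 on all their probe sets, with adjusted p of 0.50 or more. Effects of the deletion and of strain alleles beside it cannot be told apart in these groups.

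**Figure D4:**
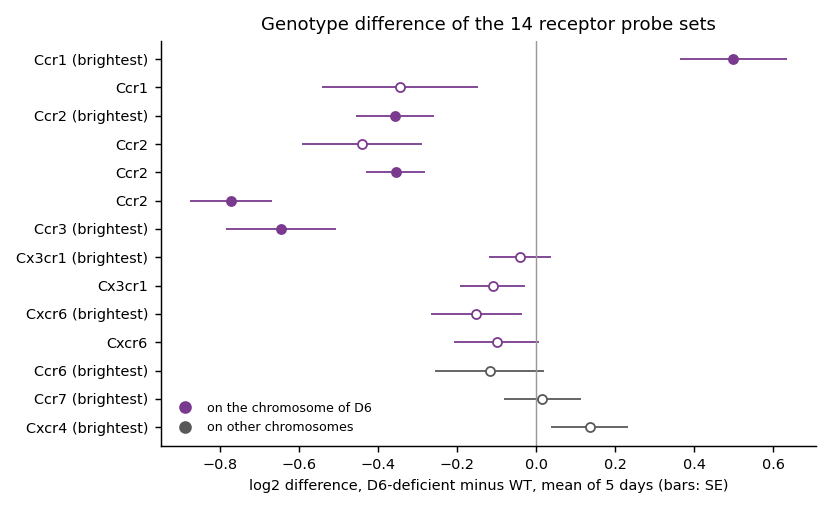
Log2 difference between KO and WT skin, averaged over the 5 days (horizontal axis, bars for the SE of the limma fit), for each of the 14 receptor probe sets, with genes on the chromosome of D6 in purple and others in grey. Filled points have an adjusted p under 0.05, and all 5 of them belong to Ccr1, Ccr2 and Ccr3. Most of the 14 probe sets, filled or open, are purple.

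Among the ligands of these receptors, 23 tested probe sets of 16 genes, 7, 6, 17 and 7 rose at days 1, 2, 4 and 6 in WT skin and 0, 0, 1 and 0 fell, where 11.4%, 11%, 17.3% and 10.2% of all probe sets rose. In KO skin 7, 13, 16 and 3 rose and 1, 2, 2 and 0 fell, where 18.2%, 17.5%, 18.8% and 16% of all rose, so that the 3 of 23 at day 6 lay near the share of all probe sets. Ccl3, a ligand of Ccr1, rose by 2.04 in WT and 5.98 in KO skin at day 2 and by 4.18 and 5.40 at day 4, the WT arrays at day 2 reading from 4.79 and 5.21 to 7.42. Ccl2, the ligand of Ccr2, rose by 3.44 and 3.70 at day 4. Its means at days 0 and 2 were 7.23 and 7.83 in WT and 7.29 and 9.17 in KO skin. Ccl24, an eotaxin, rose at day 4 alone, by 3.06 and 2.74, and Ccl11, another eotaxin, changed by -0.12 to 0.91 with adjusted p of 0.055 or more. Ccl21a, a ligand of Ccr7, fell at day 4 by 1.79 and 2.27 on its brightest probe set, and the other Ccr7 ligand Ccl19 rose by 1.15 in WT (adjusted p = 0.0066) and changed by 0.39 in KO skin (adjusted p = 0.36). Cxcl12, the ligand of Cxcr4, rose by 0.63, 0.89, 1.43 and 0.48 at days 1, 2, 4 and 6 in WT and by 0.68, 1.43, 1.79 and 0.84 in KO skin, and its change at day 2 differed between the genotypes by 0.54 (adjusted p = 0.043). Ccl20, the ligand of Ccr6, rose by 2.81 at day 2 in WT (adjusted p = 5.1e-06, arrays at 7.28, 9.46 and 9.50), and changed by -0.56 in KO skin (adjusted p = 0.25), a difference in change of -3.37 (adjusted p = 0.00036). Cxcl16, the ligand of Cxcr6, rose by 0.88 to 1.38 at days 1 to 4 in WT and by 0.73 to 1.25 in KO skin. Cx3cl1 changed by -0.40 at day 4 in KO skin (adjusted p = 0.041) and by -0.39 in WT (adjusted p = 0.050).

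The other chemokine receptors on the array had 13 tested probe sets. In WT skin 5, 8, 9 and 4 of them rose at days 1, 2, 4 and 6 and 0 fell, and in KO skin 9, 9, 8 and 3 rose and 1 fell, at day 4. Of all probe sets 11.4%, 11%, 17.3% and 10.2% rose in WT and 18.2%, 17.5%, 18.8% and 16% in KO skin, which the 3 of 13 in KO skin at day 6 lay near. Cxcr2, of neutrophils, rose by 3.02 in WT and 4.14 in KO skin at day 4. Ccr9, also near D6, was lower in KO skin at day 0 by -1.98 (adjusted p = 5.5e-06) and over all days by -0.88 (adjusted p = 4.2e-07). Of 35 tested probe sets of proteins that carry the receptors' signal or withdraw them from the surface, 7 rose and 3 fell in WT and 18 rose and 2 fell in KO skin at day 2, and 21 rose in each at day 4, where 4 and 1 fell. At day 2, 11% of all probe sets rose and 15% fell in WT and 17.5% and 20.6% in KO skin. At day 4 these shares were 17.3% and 21.8% in WT and 18.8% and 22.4% in KO skin.

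Genes with the most similar course over the 30 arrays were named for each receptor by Pearson correlation, as a description of arrays that share groups and normalization. They were Fpr2, Msr1 and Skap2 for Ccr1 (r = 0.973, 0.969 and 0.969), Ppbp, Serpinb6b and Traf1 for Ccr7 (0.973, 0.968 and 0.958), and P2rx1, Alox15 and F5 for Ccr3 (0.926, 0.918 and 0.908). For Cxcr4 they were Atxn3, Ada and Pla2g7 (0.919, 0.906 and 0.904), and for Cxcr6 the T cell genes Cd5, Ptprcap and Cd3d (0.914, 0.899 and 0.892). Ccr6 had LOC100503742, Tcrb-J and LOC665506 (0.884, 0.870 and 0.856). The courses of Ccr2 and Cx3cr1 were less like those of any gene, at 0.773 with Cysltr1 and 0.763 with Rgs10. Among the receptors themselves the highest values were 0.851 between Ccr1 and Ccr7 and 0.757 between Ccr6 and Cxcr6, and after the group means were taken off the latter pair had 0.818.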

How the data were processed

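Whole back skin RNA of 30 mice was measured on Affymetrix whole-genome arrays, 3 for each genotype and day. The authors background-corrected, quantile-normalized and summarized the probes by RMA and deposited linear intensities, whose log2 was taken here with no further scaling. A second deposited text held a sample sheet and protocols, and was not used. No column of other samples was present. Of 45037 probe sets (64 controls left out), the 20% with the lowest mean were left out (9008). limma (3.58.1, R 4.3.3) was fitted over the 30 arrays together, with a mean for every group and neither block nor covariate, and p values were adjusted by Benjamini-Hochberg over the 36029 probe sets of a contrast, in place of the methods' unpaired t-test. The fit was checked on arrays with planted changes. The number of arrays limits the precision. Every probe set of the 8 receptors was reported, the one with the highest mean over all arrays (brightest) first, with list genes by their brightest probe set and 3 neighbours for each receptor. The receptors and the lists were chosen with earlier results of these data known. Named outside that rule, after their values were seen, were the D6 gene, Cd207, Fscn1, Cd83, H2-Aa, H2-Ab1, Cxcr2, Ccr9 and Xcr1. One item of the lists is not reported here by name. Gene order and promoters are from RefSeq GRCm38.p6, and the array files name no build. Alternatives were a filter of 40% or none, the arrays of a contrast only, median centring, gene averages, the replicate number as a block, hybridization sets, a trended and robust prior, the t-test, a 3-fold threshold and each array left out. Figures were drawn with matplotlib 3.10.9.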

Additional observations from a re-analysis of the deposited data

Results flagged for a closer look

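The change of Cxcr4 from day 0 to day 2 differed between the genotypes in the test of the difference itself, by 1.29 on the log2 scale (limma, adjusted p = 0.013). The rise was 2.60 in KO and 1.31 in WT skin, and the day 2 arrays of KO skin were higher than those of WT skin in 3 of 3 arrays. The day 0 levels differed by -0.40 (adjusted p = 0.42), which adds to the contrast. Groups of 3 arrays were not tested for single outlying arrays.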

How the results depend on the processing

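Of 49 values of single receptors under 920 alternatives in all, 790 kept their direction and side of the threshold. Another 123 no longer passed, 7 newly passed and 0 reversed. Most of the 49 values passed in the main fit, so few of them had room to pass newly. The 3-fold threshold adds to the 123 by construction. The 123 and the 7 are therefore not a balanced measure of stability. In each of their alternatives 12 values kept direction and side, the day 4 changes of Ccr1 and Ccr7 in both genotypes among them. Further counts here are of receptor probe sets that pass. With a 3-fold threshold they were 2, 2, 3 and 0 at days 1, 2, 4 and 6 in WT and 1, 4, 4 and 0 in KO skin, and 0 for the genotypes at days 0 and 2, for the change at day 2 and over all days. The methods' t-test gave, unadjusted, 5 and 2 at days 4 and 6 in KO skin, 3, 4, 4 and 2 for the genotypes at days 0, 1, 2 and 4, and 5, 7, 2 and 2 for the difference in change at days 1, 2, 4 and 6. After Benjamini-Hochberg adjustment it gave 4, 4 and 0 at days 1, 2 and 6 in WT, 3, 3 and 0 at days 1, 4 and 6 in KO skin, 0 for the genotypes at days 0 and 2, 2 for the change at day 2 and 1 over all days. Cxcr4 was not among those 2 for the change at day 2, with an adjusted p of 0.065 in this t-test. For the difference in change this t-test takes the day 0 means as fixed. Over all days it pools the days, so that differences between days count as spread. With the arrays of a contrast only, the counts were 1 at day 6 in KO skin, 0 between the genotypes at day 0 and 0 for the change at day 2. With probe sets averaged, 5 and 5 genes passed at days 2 and 4 in WT, 6 at day 2 in KO skin, 2 for the change at day 2 and 2 over all days, out of 8. The cause was not tested, except that the fold threshold and the 8 genes lower the counts by construction.

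With each array left out, the counts ran from 6 to 8, 6 to 9, 8 to 9 and 4 to 6 at days 1, 2, 4 and 6 in WT and from 4 to 6, 8 to 10, 6 to 8 and 4 to 5 in KO skin. Between the genotypes they were 1 to 2 at day 2, 0 to 1 at day 4, 0 to 1 at day 6 and 4 to 6 over all days, and 1 to 3 for the change at day 2, the highest without WT day 0 replicate 3. That count was 2 without WT day 0 replicate 1 or KO day 2 replicate 2.

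Same-numbered arrays of different groups did not deviate together (median correlation 0.00807, from -0.457 to 0.554 over 135 pairs, and 10 of 30 arrays were most like one of their own number), so the numbers do not pair the arrays. With the replicate number as a block the counts were 7, 8, 9 and 6 in WT, 6, 10, 8 and 5 in KO skin, and 1 for the change at day 2 (Cxcr4, adjusted p = 0.018). The hybridization controls split the arrays into sets of 17 and 13, with all KO day 6 arrays in the first, and with the set as a covariate the Cxcr4 value at day 2 had an adjusted p of 0.015. The alternative of the authors' normalized values was not run, because the text used for it held a sample sheet and protocols. The signal above background of single probe sets was not known.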
